A study of Mus musculus with 3 samples.

Results

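The acetylcholine receptor genes described here are the 5 muscarinic receptors, Chrm1 to Chrm5, and 5 subunits of neuronal nicotinic receptors, Chrna3, Chrna4, Chrna5, Chrna7 and Chrnb2. They were taken by symbol, and 10 of 10 were found among the 32531 gene symbols of each count table. The RNA came from adult mice of the Slc17a6-TRAP JX883 line, which carry a transgene (Slc17a6-EGFP/Rpl10a) that makes an EGFP-tagged ribosomal protein L10a under control of Slc17a6, the gene of the vesicular glutamate transporter VGLUT2. Prefrontal cortex was homogenized, polysomes with the tagged protein were pulled down with antibodies to EGFP (translating ribosome affinity purification, TRAP), and the bound RNA was sequenced. The mice were untreated, each of the 3 libraries held RNA of 3 mice, and the 3 libraries form 1 group. No input RNA and no untagged control was analysed here, so a level is an abundance in the immunopurified RNA and not an enrichment. In such bulk RNA, fewer cells of a type and less RNA per cell cannot be told apart.

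Acetylcholine reaches the prefrontal cortex mainly along axons of basal forebrain neurons and acts through both receptor families. Muscarinic receptors signal through G proteins: the products of Chrm1, Chrm3 and Chrm5 couple to Gq, which activates phospholipase C and raises calcium, and those of Chrm2 and Chrm4 couple to Gi and Go, which lower cyclic AMP and open inwardly rectifying potassium channels. Nicotinic receptors are cation channels built of 5 subunits; Chrna4 and Chrnb2 products form the main high-affinity receptor of the brain, Chrna7 products form a channel on their own, and the Chrna5 product joins others as an accessory subunit.

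The families are shown by the coding stretches that set them apart. In the muscarinic genes the capitals mark the codons of the Asp-Arg-Tyr motif at the inner end of the third transmembrane helix, which takes part in G protein coupling:
Chrm1: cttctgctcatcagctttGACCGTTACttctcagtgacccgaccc
Chrm2: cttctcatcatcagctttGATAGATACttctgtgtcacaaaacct
Chrm3: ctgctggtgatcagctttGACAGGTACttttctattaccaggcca
Chrm4: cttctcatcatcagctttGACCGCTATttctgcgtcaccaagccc
Chrm5: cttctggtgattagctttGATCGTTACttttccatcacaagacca

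In the nicotinic genes the capitals mark the codons of the adjacent cysteines that define an alpha subunit. The Chrnb2 stretch begins at the codon aligned with the first codon of the Chrna4 stretch, runs on without gaps, and has no such pair:
Chrna3: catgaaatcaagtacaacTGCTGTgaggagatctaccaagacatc
Chrna4: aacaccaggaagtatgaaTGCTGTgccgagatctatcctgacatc
Chrna5: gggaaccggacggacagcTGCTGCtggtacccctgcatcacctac
Chrna7: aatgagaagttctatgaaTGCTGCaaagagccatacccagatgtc
Chrnb2: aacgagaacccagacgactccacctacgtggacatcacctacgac

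These coding bases come from GENCODE M21 transcripts on mm10, 5′ to 3′ along the message. On the plus strand lie the stretches of Chrm1 (chr19:8678278-8678322), Chrm2 (chr6:36523549-36523593), Chrm4 (chr2:91927612-91927656) and Chrna5 (chr9:55004599-55004643). On the minus strand lie those of Chrm3 (chr13:9878483-9878527), Chrm5 (chr2:112480365-112480409), Chrna3 (chr9:55015833-55015877), Chrna4 (chr2:181029257-181029301), Chrna7 (chr7:63106137-63106181) and Chrnb2 (chr3:89761326-89761370). Despite the shared motifs, no pair of muscarinic coding sequences had an identical run of more than 29 bases, and no pair of nicotinic ones a run of more than 23 bases. Of all stretches of 50 bases in the annotated transcripts of Chrm3, Chrm4, Chrm5, Chrna4, Chrna5 and Chrna7, 0 recurred in another gene's transcripts. The share was 0.825% for Chrna3, 1.42% for Chrm2, 4.32% for Chrm1 and 14.2% for Chrnb2. For Chrnb2, 1365 of 8380 exonic bases are also exonic in Adar on the other strand. No source used here says whether reads were counted by strand, and reads of that shared part are therefore uncertain.

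Replicates 1, 2 and 3 held 12592174, 8964137 and 12648577 counts of named genes, and 3 counts, the limit that a count of 0 allows, equal 0.238, 0.335 and 0.237 CPM. CPM, counts scaled to a common total of named genes, compares a gene between libraries; TPM, which also divides by transcript length, is used here to compare genes. The counts of no pair of libraries agreed within sampling noise (chi-square of 12.3 to 14.7 per degree of freedom without the ribosomal RNA gene Rn45s), so they were kept as 3 samples. Slc17a6 itself stood at 857, 723 and 913 CPM. All 8 of 8 cortical glutamatergic neuron markers and all 8 of 8 GABAergic neuron markers reached 1 CPM in every library. The share of all genes with a count was 67.0%. Their summed levels were 5070 to 5406 CPM for the glutamatergic and 948 to 1011 CPM for the GABAergic markers. The first sum includes Slc17a6 itself and Camk2a, the latter at 2609, 2904 and 3138 CPM in replicates 1, 2 and 3. Levels of single markers overlapped between these lists. Gad2, the highest GABAergic marker, averaged 626 CPM, against 307 CPM for Slc17a7 and 3.0 CPM for Emx1, the lowest glutamatergic marker. Gad2 alone made 670, 579 and 629 CPM of the GABAergic sum in replicates 1, 2 and 3. The median marker averaged 252 CPM in the glutamatergic list and 26.3 CPM in the GABAergic list. Also at 1 CPM in every library were 7 of 7 astrocyte, 6 of 7 oligodendrocyte and 6 of 7 microglia markers. Their sums were 1326 to 1520, 427 to 588 and 32.2 to 41.0 CPM, and the microglia marker C1qa was at 0. Most of the astrocyte sum came from Slc1a2 (926, 1062 and 966 CPM in replicates 1, 2 and 3) and Aldoc (312, 314 and 418 CPM). The next highest astrocyte marker, Slc1a3, averaged 50.9 CPM. Which of these cells gave the receptor messages was not tested.

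Messages of 9 of the 10 receptor genes reached 1 CPM in every library, against 67.0% of the 18377 genes with a count. The exception was Chrna5. Levels per length ran from 89.9 ± 8.63 TPM for Chrna4 to 2.23 ± 0.737 TPM for Chrna5 (SD, n = 3). Their median was 13.2 TPM, against 26.8 TPM over the 12321 genes that passed the same limit. Above the median of those 12321 genes lay 4 of the receptors, of which Chrm4, at 27.1 ± 4.38 TPM, was nearest to it. With coding length, 3 lay above the matching median of 21.8 TPM.

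**Figure D1:**
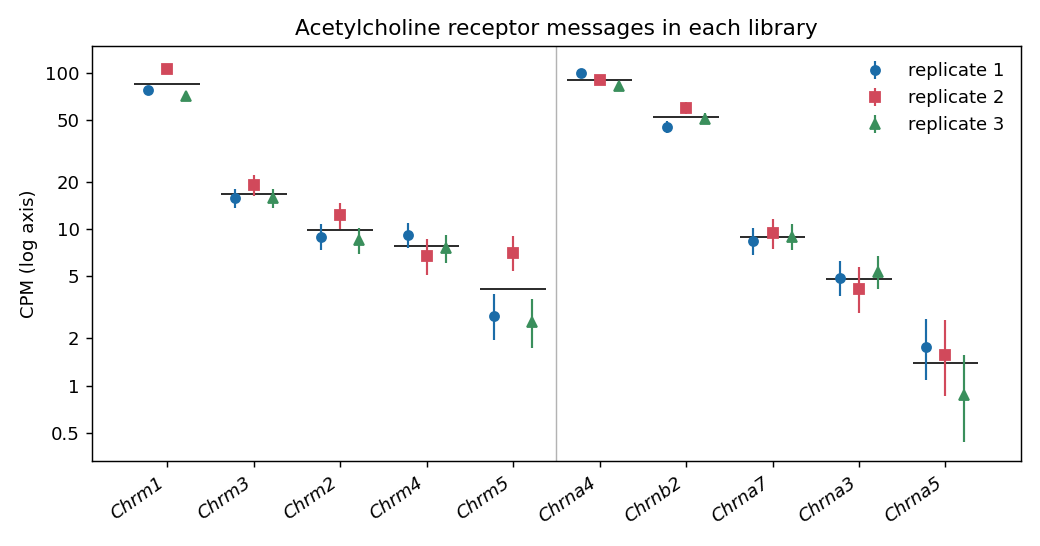
CPM of the 10 receptor genes (log axis) in replicates 1, 2 and 3, with the 95% exact Poisson interval of each count as a bar and the mean of 3 libraries as a line; muscarinic genes are on the left and nicotinic ones on the right. Chrm5 stands higher in replicate 2, at 7.03 CPM, than in replicates 1 and 3, while Chrna7 stays between 8.34 and 9.37 CPM.

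Among the receptors that couple to Gq, Chrm1, the chief muscarinic receptor of cortical excitatory neurons, had 76.9, 105 and 70.7 CPM in replicates 1, 2 and 3, from 968, 940 and 894 counts. Replicate 2 was the highest, and its Poisson interval of 98.3 to 112 CPM lay above those of the other libraries, which reached up to 81.9 CPM. Chrm3, which in the periphery drives smooth muscle contraction and gland secretion, had 15.7, 19.1 and 15.7 CPM. Its intervals overlapped, although replicate 2 was again the highest. Chrm5, known from midbrain dopamine neurons, had 2.78, 7.03 and 2.53 CPM, from 35, 63 and 32 counts. Its highest library exceeded its lowest by 2.78-fold, and the interval of replicate 2 (5.40 to 8.99 CPM) did not reach those of replicate 1 (1.94 to 3.87 CPM) and replicate 3 (1.73 to 3.57 CPM). Without replicate 2 its mean was 2.65 CPM, against 4.11 CPM with it.

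Among the receptors that couple to Gi and Go, Chrm2, a receptor of cholinergic terminals and of cortical interneurons, had 8.89, 12.2 and 8.46 CPM. Replicate 2 was the highest, with intervals that overlapped. Chrm4, which is abundant in striatal projection neurons, had 9.21, 6.69 and 7.51 CPM, with replicate 1 the highest and intervals that overlapped. The 10 striatal projection neuron markers, all of which reached 1 CPM in every library, summed to 451, 611 and 703 CPM. Of the 10, 8 were lowest in replicate 1, and the other 2, Drd1 and Rgs9, were lowest in replicate 2. How many of all genes were lowest in each replicate is not given here. The part of striatal cells in the level of Chrm4 was not tested.

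Per length, Chrm1 was the highest of the muscarinic receptors at 64.9 ± 14.2 TPM, followed by Chrm4 at 27.1 ± 4.38, Chrm3 at 13.5 ± 1.58, Chrm5 at 12.9 ± 7.95 and Chrm2 at 8.14 ± 1.69 TPM (SD, n = 3). The places of Chrm4 and Chrm5 rested on the annotation. GENCODE M21 gives these genes 1440 and 1599 exonic bases, hardly more than their coding lengths of 1437 and 1596, against 6487, 6053 and 6253 exonic bases for Chrm1, Chrm2 and Chrm3. RefSeq extends both genes, to chr2:91922189-91929835 for Chrm4 and chr2:112478733-112536361 for Chrm5. With coding length for every gene, Chrm1 stood at 73.8 ± 16.3 TPM, Chrm3 at 11.5 ± 1.38, Chrm2 at 8.52 ± 1.79, Chrm4 at 6.57 ± 1.05 and Chrm5 at 3.12 ± 1.94 TPM. Chrm1 was thus the highest with either length, at 51.1% ± 2.07 or 71.1% ± 1.39 of the family's summed TPM.

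The log2 ratio of Chrm1 over Chrm3 was 2.25 ± 0.15 in TPM, a 4.76-fold difference seen in 3 of 3 libraries. Chrm1 exceeded Chrm2 by 3.01, 3.01 and 2.96 in replicates 1, 2 and 3, or 7.97-fold on average. The SD of that ratio was 0.03, where counting error alone gives 0.15. Chrm1 and Chrm2 were both highest in replicate 2, although the intervals of Chrm2 overlapped between libraries. A spread smaller than counting error cannot show that their proportion was equal. Chrm4 lay above Chrm2 by 1.74 ± 0.48 in 3 of 3 libraries with merged exon length, yet at -0.37 ± 0.48 with coding length. The exact sign-flip permutation test gave p = 0.25 for each of these contrasts with exon length (two-sided, adjusted p = 0.25 over all 5 contrasts between receptors). That is the smallest p that 3 libraries allow, and any ratio with the same sign in all 3 gives it. The summed level of Chrm1, Chrm3 and Chrm5 exceeded that of Chrm2 and Chrm4 by 1.35 ± 0.42 log2 units (2.54-fold) in 3 of 3 libraries, and by 2.53 ± 0.21 with coding length.

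**Figure D2:**
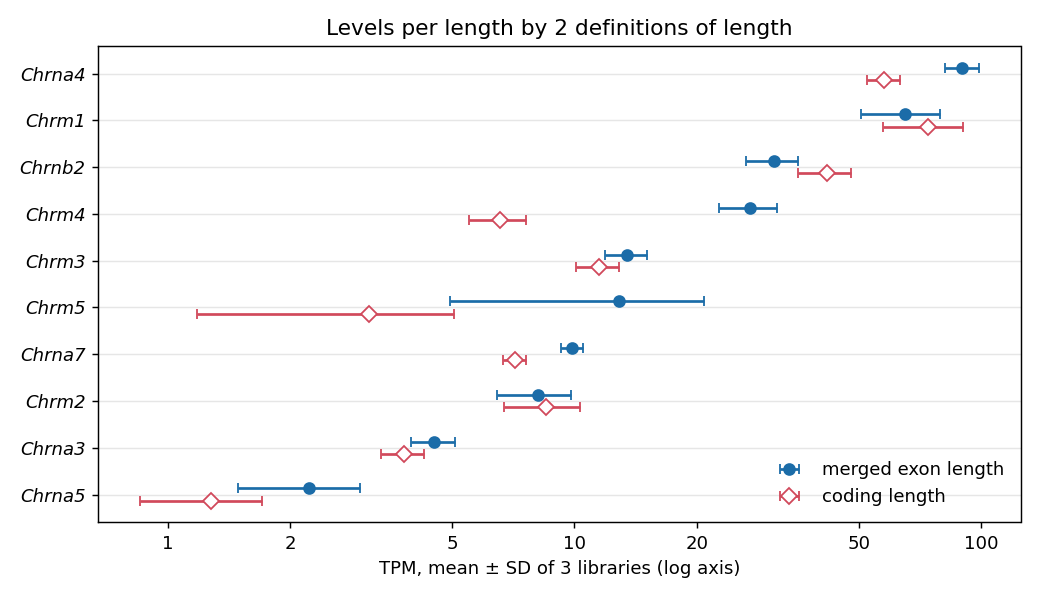
Mean TPM of each receptor gene (log axis) with its SD over 3 libraries, computed with merged exon length (filled circles) or with coding length (open diamonds). Chrm4 moves to 6.57 TPM with coding length, against 27.1 TPM with exon length, and Chrm5 to 3.12, against 12.9 TPM. As a ratio, on the log axis, no other gene moves as far.

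Among the nicotinic subunits, Chrna4, which carries the agonist site of the main high-affinity receptor, had 99.3, 89.6 and 81.6 CPM in replicates 1, 2 and 3. Replicate 1 was the highest and replicate 3 the lowest, and their intervals did not overlap. Its partner Chrnb2 had 44.9, 59.6 and 50.8 CPM, with replicate 2 the highest and replicate 1 the lowest, so the libraries stood in another order than for Chrna4. Per length, Chrna4 was at 89.9 ± 8.63 and Chrnb2 at 30.9 ± 4.50 TPM. Chrna4 exceeded Chrnb2 by 1.89, 1.33 and 1.42 log2 units in replicates 1, 2 and 3, or 2.92-fold on average. With coding length the difference was 0.48 ± 0.30, also in 3 of 3 libraries. The exonic length of Chrnb2, 8380 bases, is merged over transcripts and includes the part shared with Adar.

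Chrna7, the subunit of the homomeric channel that passes much calcium, had 8.34, 9.37 and 8.93 CPM. These values lay within each other's counting intervals, and the coefficient of variation of 5.83% was the smallest of the 10 genes. Chrna4 exceeded Chrna7 by 3.18 ± 0.21 log2 units on average, or 9.09-fold in TPM, and was higher in each of the 3 libraries. The exact sign-flip permutation test gave p = 0.25, which follows from the shared direction alone. Of the summed TPM of the 5 subunits, Chrna4 held 65.3% ± 3.60, Chrnb2 22.5% ± 3.30, Chrna7 7.20% ± 0.639, Chrna3 3.31% ± 0.587 and Chrna5 1.61% ± 0.459.

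Chrna3 and Chrna5 lie in a cluster with Chrnb4 on chromosome 9, where the products of Chrna3 and Chrnb4 make up the nicotinic receptor of autonomic ganglia and of the medial habenula. Chrna3 (chr9:55010111-55026562) had 4.84, 4.13 and 5.30 CPM, and its intervals overlapped between libraries. Chrna5 (chr9:54980880-55007779) had 1.75, 1.56 and 0.870 CPM, from 22, 14 and 11 counts, with overlapping intervals and the lowest value in replicate 3. Chrnb4, at 3.02, 3.12 and 1.50 CPM, was also lowest in replicate 3. The genes run tail to tail: GENCODE M21 leaves 2331 bases between Chrna5 and Chrna3, while in RefSeq Chrna5 extends into Chrna3 by 1304 bases on the other strand. Which annotation was used for counting is not given, so reads near that end may have been left out as shared. Markers of habenula and thalamus summed to 434, 430 and 389 CPM and olfactory bulb output markers to 300, 253 and 153 CPM. Both sums were lowest in replicate 3. The largest parts of the first sum were Rora (179, 150 and 146 CPM), Ntng1 (112, 95.9 and 90.4 CPM) and Calb2 (68.1, 76.2 and 49.7 CPM). Of these lists, 8 of 10 and 6 of 7 markers reached 1 CPM in every library. The habenular factor Pou4f1 and the thalamic factor Gbx2 were at 0. Of the markers that could be tested, 4 of 8 for habenula and thalamus and 6 of 7 for olfactory bulb were themselves lowest in replicate 3. The other 4 for habenula and thalamus, Tac2, Gng8, Nwd2 and Tcf7l2, were lowest in replicate 1, as was Trh of the olfactory bulb. Tac2, Gng8 and Trh were highest in replicate 3. The share of all genes lowest in each replicate is not given here. In each list 1 marker varied between libraries past an adjusted p of 0.05 in edgeR, as did 0.244% of all 14774 genes tested. Cdhr1 of the olfactory bulb, at 116, 95.9 and 17.3 CPM, was lowest in replicate 3. Tcf7l2 of the thalamus and habenula, at 7.86, 32.4 and 20.6 CPM, was lowest in replicate 1. The part of cells of these regions in the levels of Chrna5 and Chrnb4 was not tested.

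Placed in 1 order by exon-length TPM, the receptor genes ran Chrna4, Chrm1, Chrnb2, Chrm4, Chrm3, Chrm5, Chrna7, Chrm2, Chrna3 and Chrna5. Neighbours whose library values overlapped were Chrnb2 and Chrm4 (difference of 0.19 ± 0.44 log2 units), Chrm3 and Chrm5 (0.23 ± 0.65), Chrm5 and Chrna7 (0.22 ± 0.75), and Chrna7 and Chrm2 (0.30 ± 0.23). The other 5 neighbouring pairs did not overlap, with differences of 0.49 to 1.07. With coding length the order was Chrm1, Chrna4, Chrnb2, Chrm3, Chrm2, Chrna7, Chrm4, Chrna3, Chrm5 and Chrna5, where library values of Chrm1 and Chrna4 overlapped (0.33 ± 0.31), as did those of Chrm2 and Chrna7, of Chrna7 and Chrm4, and of Chrna3 and Chrm5. The summed muscarinic and nicotinic levels differed by -0.13 ± 0.20 log2 units, muscarinic over nicotinic, which is less than the spread between libraries.

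Whether a receptor varied between the libraries more than genes of like abundance was tested over all 14774 genes with at least 10 counts in a library. In edgeR's goodness of fit, 36 genes (0.244%) passed an adjusted p of 0.05, and 0 of the 10 receptors did. At an unadjusted p of 0.05, 7.22% of all genes and 0 of 10 receptors passed, and 0 of 10 passed an adjusted p of 0.05 in the limma variance test. Chrm1 came nearest, with a coefficient of variation of 21.6% against 13.1% for the trend of genes of like abundance (adjusted p = 0.810, edgeR). For Chrm5 the coefficient was 61.5%, counting error being 15.2% and the trend 43.6% (adjusted p = 0.975, edgeR). For the other 8 receptors the adjusted p in edgeR rounded to 1. A p that misses the threshold in 3 libraries does not show that a receptor's level was equal between them. Over the 10 receptors the median coefficient of variation was 15.4%, against 19.3% over all genes tested. Those genes needed only 10 counts in 1 library, so the medians are not matched for level. Replicate 2 was the highest library for 6 of the 10 receptors, as it was for 33.5% of the 12321 genes named above.

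**Figure D3:**
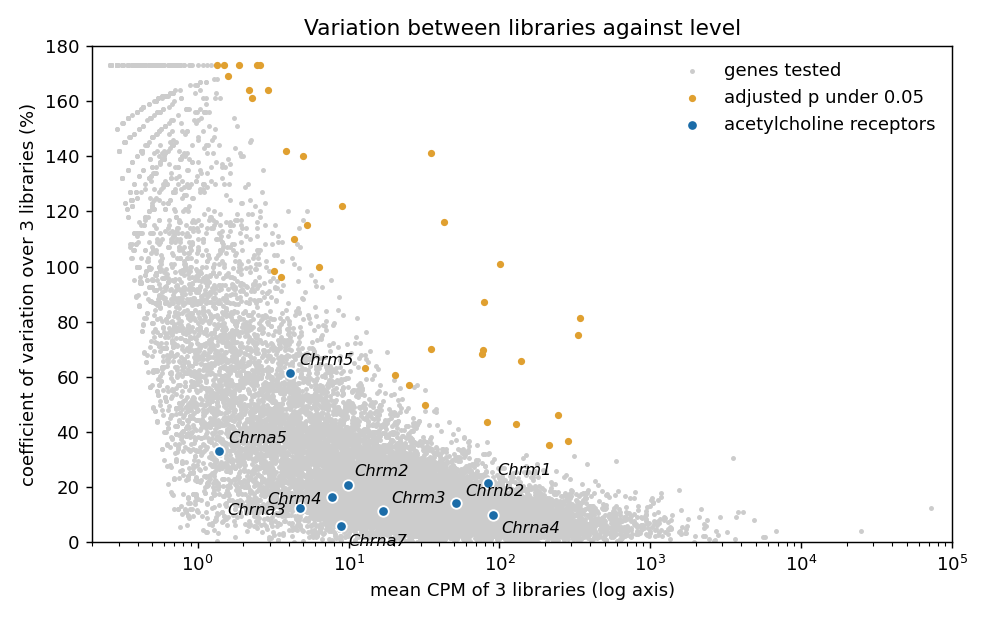
Coefficient of variation over 3 libraries against mean CPM (log axis) for the 14774 genes tested (grey), the 36 with an adjusted p under 0.05 in edgeR (orange) and the 10 receptor genes (blue, named). The receptors lie within the cloud of other genes, with Chrm5 at 61.5% and Chrna7 at 5.83%.

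The other nicotinic subunits were low. Of 11, 2 reached 1 CPM in every library: Chrnb4 and Chrnb3, which joins receptors of midbrain and visual pathways and had 1.59, 6.69 and 1.26 CPM. Chrnb3 was highest in replicate 2, as Chrm5 was, with an adjusted p of 0.687 in edgeR. The muscle subunit Chrna1 had 2.30, 0.335 and 0.791 CPM, and Chrna9 and Chrna10, of cochlear hair cells, and the muscle subunits Chrnd and Chrng had 0 counts in every library. Of 7 genes of acetylcholine handling, 4 reached 1 CPM in every library. The highest was Ache, the enzyme that breaks acetylcholine down, at 28.3, 36.3 and 30 CPM. The choline transporter gene Slc5a7 had 3.10, 4.13 and 6.25 CPM, the esterase gene Bche 1.75, 5.35 and 3.72 CPM, and Colq, which anchors the enzyme at the muscle endplate, had 0 counts. Chat, which makes acetylcholine, had 0.794, 2.57 and 2.21 CPM, and the vesicular transporter gene Slc18a3 had 0, 0 and 2.69 CPM (both named after their values were seen). Summed over 8 markers of cholinergic neurons, of which 4 reached 1 CPM in every library and Gbx1 was at 0, the level was 23.5 to 28.3 CPM.

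Partners of the receptors lay on both sides of the receptor levels. With exon length, Lypd1, at 14.0 ± 1.43 TPM, was below Chrna4, Chrm1, Chrnb2 and Chrm4, while Lynx1 and Ly6e were above all 10 receptors. All 8 of 8 genes for nicotinic assembly factors and Ly6 proteins reached 1 CPM in every library. Lynx1, a membrane-anchored modulator that damps nicotinic currents, stood at 453 ± 17.8 TPM, Ly6e at 245 ± 20.9 TPM and the chaperone gene Ric3 at 64.6 ± 2.42 TPM (SD, n = 3). Lypd6b, another Ly6 protein gene, was the lowest of this list in CPM, at 10.7, 13.3 and 6.96 CPM. Tmem35a, the chaperone needed for Chrna7 channels, was listed under its older symbol Tmem35 and had 28.0, 27.0 and 29.1 CPM.

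Of the genes downstream of Gq, 13 of 13 reached 1 CPM in every library, with the protein kinase C gene Prkcb at 1487 ± 95.8 TPM, the regulator Rgs4, which shortens Gq signals, at 791 ± 43.6, and the calcium release channel gene Itpr1 at 151 ± 8.60 TPM. The lowest in CPM was the phospholipase C gene Plcb3 at 3.65, 6.80 and 2.61 CPM, while its relative Plcb1 stood at 376, 383 and 348 CPM. Downstream of Gi and Go, 11 of 11 genes reached that limit as well, among them the G protein genes Gnai1 (1403 ± 85.8 TPM), Gnb1 (1269 ± 53.2 TPM) and Gnao1 (877 ± 3.19 TPM), with the adenylyl cyclase gene Adcy8 lowest in CPM at 24.9, 28.7 and 24.4. The potassium channel gene Kcnj6 had 57.0, 64.7 and 34.4 CPM (adjusted p = 0.501, edgeR). Of the 43 genes on these 5 lists that could be tested, 0 passed an adjusted p of 0.05 in edgeR or in the limma variance test, and Chrnb3, Slc18a3, Kcnj6 and Gna11 passed an unadjusted p of 0.05 in edgeR. These 4 are 9.30% of the 43, against 7.22% of all genes tested. When edgeR used 1 dispersion for all genes, Chrna2, Chrnb3 and Slc18a3 passed an adjusted p of 0.05, which is 6.98% of the 43, against 7.43% of all genes. Both shares are near those of all genes.

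**Figure D4:**
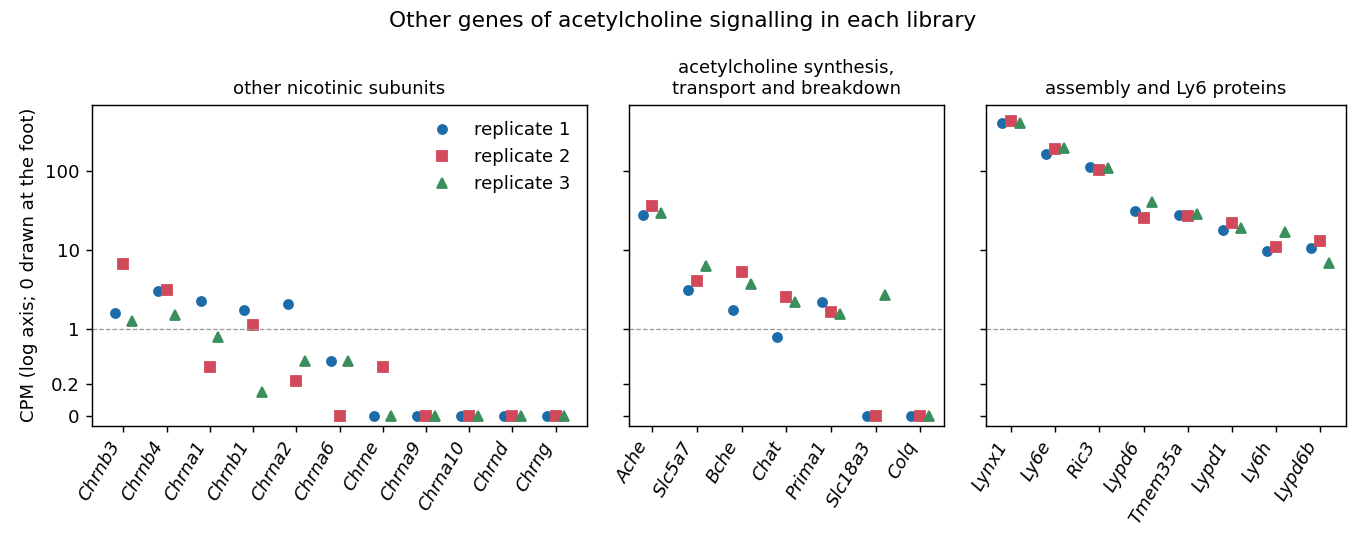
CPM in replicates 1, 2 and 3 (log axis, with 0 drawn at the foot and 1 CPM as a dashed line) for the other nicotinic subunits, the genes of acetylcholine synthesis, transport and breakdown, and the assembly and Ly6 protein genes. The 8 assembly and Ly6 genes lie above 1 CPM in every library, while 4 nicotinic subunits and Colq lie at 0.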

How the data were processed

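The authors deposited, for each of 3 libraries, whole-number counts per gene symbol that end in HTSeq's summary lines. The submitters' processing notes name STAR 2.0.0e, HTSeq and mm10 but no settings; annotation and strand use were not stated. Lines that name no gene held 27.8% ± 0.563 of counts (SD, n = 3), among them reads with several placements, and were left out of totals.

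CPM were computed over named genes. TPM used merged exon length or the coding length of the principal transcript from GENCODE M21 on mm10, matched for 87.2% of symbols with a count. Variation was tested with an intercept-only negative binomial fit in edgeR 4.0.16 (TMM, trended dispersion, deviance against chi-square with 2 degrees of freedom, Benjamini-Hochberg over all genes). Genes needed at least 10 counts in 1 library. Contrasts within a library used an exact two-sided sign-flip test. Replicate numbers give no pairing, since there is 1 group. Nothing says more of the replicates than that each library pools 3 mice, so p-values speak only of these libraries. The edgeR p-value sets the spread between them against the trend of genes of like abundance. The sign-flip p-value does not measure that spread: it is 0.25 for any ratio with the same sign in all 3 libraries.

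Intervals are 95% exact Poisson and cover counting error only. The edgeR and limma tests were tested on simulated data. Alternatives used limma 3.58.1, DESeq2 1.42.0, other minimums, lengths, totals and each replicate left out, in R 4.3.3 and Python 3.11.15. The rule for named genes took all 10 receptors and, of each pathway list, the 3 highest and the lowest by mean CPM; others were named after their values were seen. The members and lists were chosen with earlier results of these data known.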

Additional observations from a re-analysis of the deposited data

How the results depend on the processing

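Chrm4 over Chrm2 reversed to -0.33 log2 units without length and -0.37 with coding length, because the exon length of Chrm4 holds no untranslated part. For the same reason Gq-coupled over Gi-coupled receptors moved to 2.56 and 2.53 (1.11 to 1.50 with a replicate left out). Muscarinic over nicotinic was -0.37 without length and -0.25 to -0.07 with a replicate left out. The other 4 contrasts between receptors kept their direction under every length, pseudocount and replicate setting run. Of genes varying between libraries, the limma variance test called 12, a common dispersion in edgeR 1097 and an adjusted p of 0.01 called 18, and 16, 16 and 21 were called without replicates 1, 2 and 3; the cause was not tested. None of the 10 receptors was called in any of these fits, the lowest adjusted p being 0.332 for Chrm5 with a common dispersion in edgeR. The level of Chrna7 was 9.57 CPM with totals without Rn45s, more than 1 SD from 8.88. No paired analysis was possible because the study has 1 group. Depth limits Chrna5, with 11 to 22 counts a library.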
